A study of Mus musculus with 45 samples.

Results

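The AP-1 and immediate early transcription factors were followed through a panel of mouse mammary tumour cell lines grown with or without cysteine and cystine. The members are 10 genes: Fos, Fosb, Fosl1, Fosl2, Jun, Junb, Jund, Egr1, Ier2 and Ier3. They were taken by symbol from the 28454 genes of the count table, were all present, and were all tested in each comparison. The panel held 45 polyadenylated RNA libraries of 11 lines, in 15 groups of 3 cultures. MYAZ16.1e, MYAZ12.3i and MYAZ6.6g came from mammary tumours of MMTV-cMYC mice, in which the mouse mammary tumour virus promoter drives MYC in the mammary epithelium. Myc310 is a single line from another mouse carrying the same kind of transgene, with several tumours. LM1, LM2 and LM3 were grown from lungs after Myc310 cells had been injected into the mammary fat pad, and LM1-LM, LM2-LM and LM3-LM from lungs after LM cells had been injected in turn. MYAZ12.3i NDI1 is a line that the labels name as MYAZ12.3i with NDI1, the name of a yeast NADH dehydrogenase. All cells were grown in DMEM:F12 with serum, insulin, hydrocortisone and mouse EGF. For 4 of the lines (MYAZ16.1e, and Myc310 with its descendants LM1 and LM1-LM), 24 h after seeding 250000 cells per well the medium was replaced for 6 h by control medium or by medium without cysteine and cystine (the deprived groups). The other 7 lines were measured in control medium only, and the sources differ on whether every one of them also received the 6 h change of medium, which matters for genes that respond to fresh serum. The cultures of a line are described as technical replicates, so that p-values between them measure the spread between cultures and not between tumours.

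FOS proteins (FOS, FOSB, FOSL1, FOSL2) form dimers with JUN proteins (JUN, JUNB, JUND) through a leucine zipper, and JUN proteins also pair with each other and with ATF proteins. The dimers, together called AP-1, bind DNA at a short element in many genes of growth, migration and stress. Most of these genes are transcribed within minutes of a stimulus such as serum, EGF or oxidative stress, through MAP kinases acting on factors already bound at their promoters, and their short-lived mRNAs soon decline again. EGR1 is a zinc finger factor induced along with FOS, IER2 is a small nuclear protein and IER3 a stress-induced regulator of survival. The cells were measured at a single time, 6 h, so that an earlier or later course was not seen.

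Total counts per library lay between 19517859 and 29019988, with a median of 22899900, and levels are given as counts per 1000000 counts of the TMM-scaled library (CPM). The labelled origin in mammary gland tumours was checked against 10 epithelial markers, whose summed level ran from 339.9 to 2465 CPM. Krt8, with a mean of 952.5 CPM, and Krt18 were well expressed in every group. Krt19 and Krt7 varied between lines, at 3.18 and 3.42 CPM in LM2-LM and 108.4 and 82.3 CPM in LM3-LM. Epcam, Cdh1, Cldn3, Cldn4 and Cldn7 were at or near 0 in every group, the highest group mean among them being 0.673 CPM for Epcam. Elf3 was low as well, with group means of 2.795 CPM or less. Of the other cell types, 10 fibroblast markers summed to between 1.729 and 217.5 CPM, 8 leukocyte markers to between 17.74 and 70.84 CPM, 8 endothelial markers to between 5.735 and 19.81 CPM and 6 alveolar markers to between 0.0504 and 6.627 CPM. Fap and Erg had no count in any library. In bulk RNA, fewer cells of a type and less RNA per cell cannot be told apart.

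On the GRCm38 mouse genome, the build of the study's alignment, Fos lies at chr12:85473890-85477273 on the plus strand, Fosb at chr7:19302696-19310051 on the minus strand, Fosl1 at chr19:5447547-5455946 on the plus strand and Fosl2 at chr5:32135801-32157842 on the plus strand. Jun lies at chr4:95049034-95052222 on the minus strand, Junb at chr8:84974484-84978718 on the minus strand and Jund at chr8:70698949-70700616 on the plus strand. Ier3 lies at chr17:35821684-35822923 on the plus strand and Ier2 at chr8:84661331-84662852 on the minus strand. Fosl1, Jun, Junb and Jund overlap a gene of the opposite strand (Ccdc85b, Junos, Prdx2 and Gm11175). The library kit keeps the strand, but whether the counting used it is not given in the sources used here, so reads of those partners could be included.

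The bases upstream of 4 members are shown because Jun and Fosb had the largest fold changes on deprivation in Myc310, LM1 and LM1-LM, Junb a response that was smaller in LM1 than in Myc310, and Fos the one response that did not pass the test. Each is the 250 bases before the RefSeq start site on GRCm38.p6, 5′ to 3′, at chr4:95052223-95052472 (minus strand) for Jun, chr7:19310046-19310295 (minus strand) for Fosb, chr8:84978749-84978998 (minus strand) for Junb and chr12:85473640-85473889 (plus strand) for Fos, with motif matches in capitals.
Jun: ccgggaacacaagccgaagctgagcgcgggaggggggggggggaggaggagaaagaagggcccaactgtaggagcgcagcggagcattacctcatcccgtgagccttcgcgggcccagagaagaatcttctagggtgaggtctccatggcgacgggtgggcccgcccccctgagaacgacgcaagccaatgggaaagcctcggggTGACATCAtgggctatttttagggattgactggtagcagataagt
Fosb: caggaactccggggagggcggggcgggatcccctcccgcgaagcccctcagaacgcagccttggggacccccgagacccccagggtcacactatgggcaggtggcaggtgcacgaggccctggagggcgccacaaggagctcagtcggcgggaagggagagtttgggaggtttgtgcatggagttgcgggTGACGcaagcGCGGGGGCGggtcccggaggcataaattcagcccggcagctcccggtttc
Junb: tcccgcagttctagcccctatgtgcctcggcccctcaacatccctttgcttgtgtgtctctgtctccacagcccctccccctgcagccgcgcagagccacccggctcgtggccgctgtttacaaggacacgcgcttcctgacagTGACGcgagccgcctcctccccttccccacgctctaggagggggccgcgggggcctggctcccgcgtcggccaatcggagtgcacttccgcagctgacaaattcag
Fos: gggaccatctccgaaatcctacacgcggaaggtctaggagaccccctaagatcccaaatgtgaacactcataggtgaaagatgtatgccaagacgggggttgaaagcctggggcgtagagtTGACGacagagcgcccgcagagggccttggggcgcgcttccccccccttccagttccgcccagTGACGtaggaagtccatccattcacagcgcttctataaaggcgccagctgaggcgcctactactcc
The capitals mark TGACATCA in Jun from 45 to 38 bases before the start, a variant of the cyclic AMP response element at which JUN and ATF2 dimers are known to bind. In Fosb they mark TGACG from 60 to 56 bases before the start and the EGR-type GCGGGGGCG from 50 to 42 bases before it. In Junb TGACG lies from 106 to 102 bases before the start, and in Fos it occurs from 129 to 125 and from 66 to 62 bases before it.
7 motifs were searched on both strands, in windows running from 250 bases before to 50 bases after the start, for the 7 of 10 members with a RefSeq window. The AP-1 element TGANTCA, the full cyclic AMP response element TGACGTCA, the amino acid response element TGATGNAA and the CArG box of serum response factor were in none of the 7 windows. Over 32851 windows of all genes, they occurred in 7.81%, 1.79%, 3.97% and 1.63%. The RefSeq start of Jund lies 1210 bases upstream of the annotated gene start given above and that of Fosl2 671 bases downstream of it, while for the other 5 the starts differ by 0 to 30 bases. The variant TGANNTCA was in 2 of 7 windows (Jun and Jund), against 14.1% of all windows, TGACG in 3 of 7, against 20.8%, and GCGNGGGCG in 2 of 7 (Fosb and Fosl2), against 5.55%. A TGACGTCA match also counts as TGANNTCA and as TGACG, and TGANNTCA and TGACG were added to the search after the sequences had been seen. A match of letters is not evidence of binding, and the absence of one says only that these letters are not in the window.

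The first question was what 6 h without cysteine and cystine did to these factors in each line. 9 of the 10 members rose in each of the 4 lines, and none fell (edgeR quasi-likelihood test on 24 libraries in 8 groups, 13400 genes, adjusted p under 0.05 by Benjamini-Hochberg). Higher calls made up 26.6% of all genes tested in MYAZ16.1e, 32.8% of those in Myc310, 35.8% of those in LM1 and 36.5% of those in LM1-LM. The rise was smaller in MYAZ16.1e: the median log2 fold change over the 10 members was 0.52 there, against 1.14 for Myc310, 1.43 for LM1 and 1.46 for LM1-LM, while the median over all genes lay between -0.01 and 0. Taking only rises of more than 2-fold, 1 of 10 members passed in MYAZ16.1e (3.78% of all genes), 8 did so in Myc310 (6.93%), 8 did so in LM1 (9.06%) and 7 did so in LM1-LM (9.76%). Control and deprived cultures did not overlap in 38 of the 40 pairs of member and line. The same was not counted over all genes, so this number does not set the members apart. With 3 cultures a side, an exact two-sided permutation test cannot go below p = 0.1, and the 38 pairs reached that value.

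**Figure D1:**
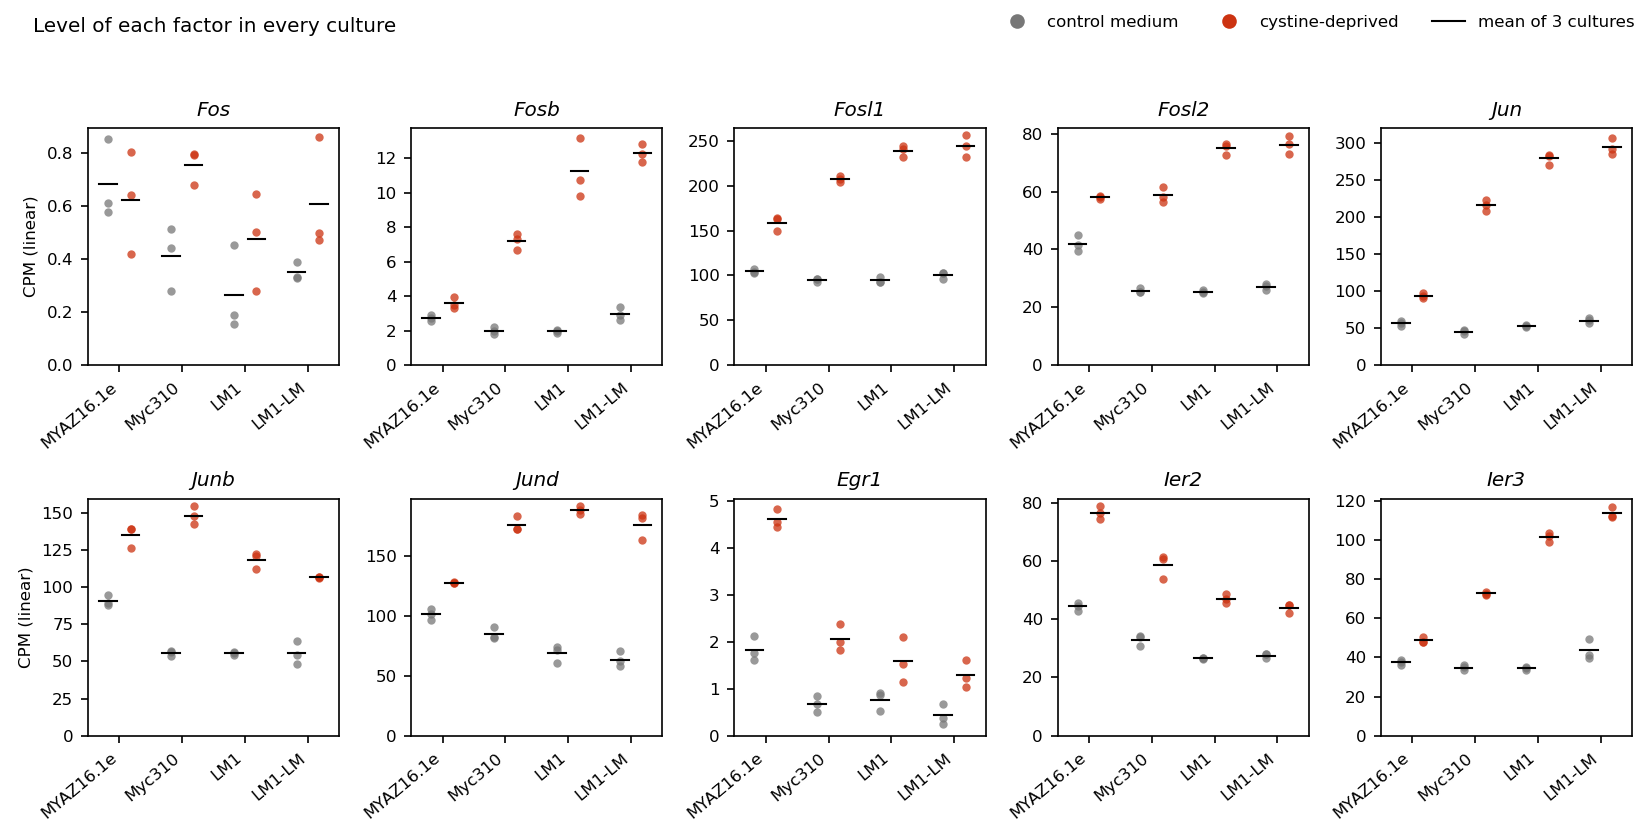
Level of each of the 10 members in CPM (linear axis from 0) in every culture of the 4 lines, with control medium in grey, deprived medium in red and a bar at the mean of 3 cultures. Jun reaches at most 97.2 CPM in MYAZ16.1e cultures and at least 207.8 CPM in every deprived culture of Myc310, LM1 and LM1-LM.

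Among the JUN genes, Jun, the subunit that JNK phosphorylates and that can drive its own promoter, changed most. In MYAZ16.1e, Jun stood at 59.8, 53.1 and 57.6 CPM in control medium and at 93.1, 97.2 and 91.3 CPM after deprivation. In Myc310, Jun went from 47.0, 45.9 and 41.6 CPM to 215.9, 223.4 and 207.8 CPM. LM1 had Jun levels of 53.7, 53.3 and 51.8 CPM in control medium and 270.7, 282.9 and 284.4 CPM in deprived medium. The control cultures of these lines thus lay close together, and the deprived cultures of MYAZ16.1e stayed far below those of the other lines. LM1-LM cultures held 63.3, 60.5 and 57.2 CPM of Jun before and 285.8, 292 and 307.1 CPM after. Jun thus rose 1.64-fold in MYAZ16.1e cells, 4.76-fold in Myc310 cells, 5.41-fold in LM1 cells and 5.01-fold in LM1-LM cells, that is by log2 fold changes of 0.72 (SE 0.0449), 2.25 (SE 0.0444), 2.44 (SE 0.0435) and 2.33 (SE 0.0419), with edgeR adjusted p = 2.26e-14, 1.5e-27, 8.59e-29 and 1.11e-28. By size of fold among all 13400 genes, Jun ranked 256 for Myc310, 297 for LM1 and 311 for LM1-LM, but 1058 for MYAZ16.1e.

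Junb, often described as a weaker activator that can oppose JUN, started from a higher level in MYAZ16.1e (90.7 ± 3.56 CPM, SD, n = 3) than in Myc310 (55.8 ± 1.69), LM1 (55.5 ± 0.920) and LM1-LM (55.7 ± 7.83). In MYAZ16.1e its deprived cultures reached 126.5, 139.2 and 139.3 CPM. Those of Myc310 reached 147.8, 154.5 and 142.3 CPM, those of LM1 120.9, 122.4 and 112.6 CPM and those of LM1-LM 107, 107.2 and 106 CPM. Junb was therefore highest after deprivation in Myc310 and lowest in LM1-LM, an order unlike that of Jun. Its log2 fold changes were 0.57 for MYAZ16.1e, 1.40 for Myc310, 1.13 for LM1 and 0.98 for LM1-LM, with edgeR adjusted p between 1.76e-19 and 2.35e-10.

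Jund, the member that most cells express without a stimulus, rose from 101.1 ± 4.40 to 127.2 ± 0.403 CPM in MYAZ16.1e (log2 0.33, edgeR adjusted p = 1.32e-05). Its Myc310 mean went from 84.8 ± 4.91 to 175.6 ± 6.19 CPM (log2 1.04), its LM1 mean from 68.9 ± 7.13 to 187.6 ± 3.31 CPM (log2 1.48) and its LM1-LM mean from 63.3 ± 6.29 to 175.9 ± 11.2 CPM (log2 1.51), with edgeR adjusted p of 2.95e-16 or less in these 3 lines. MYAZ16.1e thus had the highest control level and the lowest deprived level of the 4 lines.

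Of the FOS genes, Fosl1, which encodes FRA1 and is known for sustained expression in mesenchymal-like tumour cells, was the FOS gene with the highest level per kilobase of exon in every group. In MYAZ16.1e, Fosl1 moved from 103.6, 102.4 and 107.2 CPM to 149.5, 162.7 and 163.4 CPM. In Myc310, Fosl1 moved from 95.8, 96.4 and 92.7 CPM to 204.3, 210.6 and 207.2 CPM. LM1 cultures held 98.4, 92.9 and 92.2 CPM in control and 232, 244.3 and 240.6 CPM in deprived medium. The control cultures of the 4 lines differed little, while the deprived ones fell into a lower set in MYAZ16.1e and higher sets elsewhere. In LM1-LM the control cultures had 96.4, 102.3 and 103.2 CPM and the deprived ones 231.7, 256 and 244.6 CPM. The log2 fold changes of Fosl1 were 0.60 (SE 0.0377), 1.11 (SE 0.0375), 1.38 (SE 0.0377) and 1.32 (SE 0.0370) in the same order of lines, with edgeR adjusted p between 6.19e-24 and 2.93e-14.

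Fosl2, which encodes FRA2, rose from 41.9 ± 2.81 to 58.0 ± 0.598 CPM in MYAZ16.1e (log2 0.47, edgeR adjusted p = 5.92e-10). Myc310 cultures averaged 25.8 ± 0.894 and then 58.6 ± 2.65 CPM (log2 1.17), LM1 cultures 25.3 ± 0.554 and then 74.9 ± 2.01 CPM (log2 1.60), and LM1-LM cultures 27.1 ± 0.987 and then 76.3 ± 3.14 CPM (log2 1.53). MYAZ16.1e had the highest control level, but after deprivation it was level with Myc310 and below LM1 and LM1-LM.

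Fosb, whose truncated product is known to accumulate under repeated stimulation, was low in control medium and had the largest fold changes of the FOS genes outside MYAZ16.1e. In MYAZ16.1e, Fosb was 2.91, 2.58 and 2.75 CPM in control and 3.30, 3.97 and 3.49 CPM in deprived cultures. In Myc310, Fosb went from 2.21, 1.80 and 2.01 CPM to 7.60, 6.67 and 7.34 CPM. LM1 went from 2.01, 2.03 and 1.88 CPM to 9.80, 13.2 and 10.8 CPM, with the widest spread between deprived cultures. LM1-LM went from 3.40, 2.91 and 2.61 CPM to 12.8, 12.25 and 11.8 CPM. The fold changes were 3.54, 5.83 and 4.24 in Myc310, LM1 and LM1-LM, with edgeR adjusted p = 7.54e-13, 1.18e-16 and 1.68e-15. In MYAZ16.1e the log2 fold change of 0.38 (SE 0.144, edgeR adjusted p = 0.0268) was lost in 5 of 11 alternatives, with adjusted p = 0.242 without replicate 2, 0.117 without replicate 3, and 0.093 without a filter on low counts.

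Fos itself, the founding member of the family, was hardly expressed at this time, with 3 to 18 counts per library in these 8 groups. In MYAZ16.1e its levels were 0.852, 0.610 and 0.578 CPM in control and 0.419, 0.804 and 0.642 CPM in deprived cultures, which overlapped. In Myc310 they were 0.513, 0.440 and 0.280 CPM against 0.679, 0.793 and 0.791 CPM, without overlap. LM1 cultures gave 0.155, 0.452 and 0.188 CPM against 0.279, 0.502 and 0.644 CPM, and overlapped. LM1-LM cultures gave 0.387, 0.332 and 0.327 CPM against 0.497, 0.857 and 0.470 CPM, without overlap. The log2 fold changes were -0.12 (95% interval -0.90 to 0.67), 0.84 (0.01 to 1.67), 0.84 (-0.14 to 1.83) and 0.81 (-0.07 to 1.69), with edgeR adjusted p = 0.829, 0.0642, 0.109 and 0.0879. At these counts neither a rise nor its absence could be shown.

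Egr1, at chr18:34859823-34864984 on the plus strand, is a target of serum response factor known for a brief burst of expression. It was also low, at 6 to 111 counts per library. In MYAZ16.1e, Egr1 rose from 1.60, 2.11 and 1.77 CPM to 4.56, 4.82 and 4.45 CPM. In Myc310, Egr1 rose from 0.671, 0.836 and 0.514 CPM to 1.99, 1.82 and 2.37 CPM. The cultures of LM1 went from 0.876, 0.903 and 0.516 CPM to 1.53, 2.10 and 1.15 CPM. MYAZ16.1e was thus the highest line for this gene in either medium. In LM1-LM the levels were 0.258, 0.665 and 0.373 CPM in control and 1.22, 1.61 and 1.03 CPM in deprived cultures. The log2 fold changes were 1.33 (SE 0.231), 1.59 (SE 0.293), 1.09 (SE 0.299) and 1.59 (SE 0.341), with edgeR adjusted p = 1.28e-05, 1.23e-05, 0.00145 and 7.41e-05. Egr1 was the only member to rise more than 2-fold in MYAZ16.1e.

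Ier2 rose by a similar factor in all 4 lines. Its control cultures in MYAZ16.1e had 44.7, 43.0 and 45.7 CPM and the deprived ones 76.6, 78.9 and 74.5 CPM. In Myc310, Ier2 went from 33.9, 34.3 and 30.8 CPM to 60.7, 61.6 and 53.9 CPM. In LM1, Ier2 went from 26.9, 26.5 and 26.8 CPM to 47.0, 48.6 and 45.5 CPM. LM1-LM was close to LM1 for this gene, with 28.0, 26.6 and 27.9 CPM in control and 44.98, 42.2 and 44.8 CPM in deprived cultures. The folds were 1.71, 1.76, 1.81 and 1.64 in the same order of lines, with edgeR adjusted p between 3.38e-15 and 1.54e-13.

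Ier3 is known to be induced by NF-kB as well as by stress kinases. MYAZ16.1e cultures averaged 37.6 ± 1.35 CPM of Ier3 in control and 48.7 ± 1.38 CPM in deprived medium (log2 0.37, edgeR adjusted p = 9.33e-07). For Myc310 the means were 34.8 ± 1.23 and 72.7 ± 0.902 CPM (log2 1.05, 2.91e-17), for LM1 34.4 ± 0.602 and 101.4 ± 2.33 CPM (log2 1.59, 3.96e-22), and for LM1-LM 43.6 ± 5.204 and 113.6 ± 2.96 CPM (log2 1.42, 1.87e-21). The control cultures of the lines lay close to each other, and the deprived cultures of LM1 and LM1-LM were far above those of MYAZ16.1e.

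The second question was whether the lines responded to different degrees, for which the difference between responses was itself tested. 7 of the 10 members (Fosb, Fosl1, Fosl2, Jun, Junb, Jund and Ier3) responded more in Myc310 than in MYAZ16.1e, where 19.8% of all genes did. The same 7 responded more in LM1 than in MYAZ16.1e (26.9% of all genes) and in LM1-LM than in MYAZ16.1e (28.4%). These 3 comparisons share the 6 MYAZ16.1e libraries and are not independent of each other. For Jun the response was larger than in MYAZ16.1e by 1.53 (95% interval 1.40 to 1.66) on the log2 scale in Myc310, by 1.72 (1.59 to 1.85) in LM1 and by 1.61 (1.48 to 1.74) in LM1-LM, with edgeR adjusted p = 1.84e-17, 1.49e-19 and 2.73e-19. For Fosb the differences were 1.45, 2.17 and 1.70, with edgeR adjusted p = 8.95e-07, 1.73e-10 and 7.06e-09. For Junb they were 0.83, 0.56 and 0.41, with edgeR adjusted p of 5.39e-05 or less, the last 2 being the smallest of the 7 members in LM1 and LM1-LM. In Myc310 the smallest of the 7 was that of Fosl1, at 0.52.

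**Figure D2:**
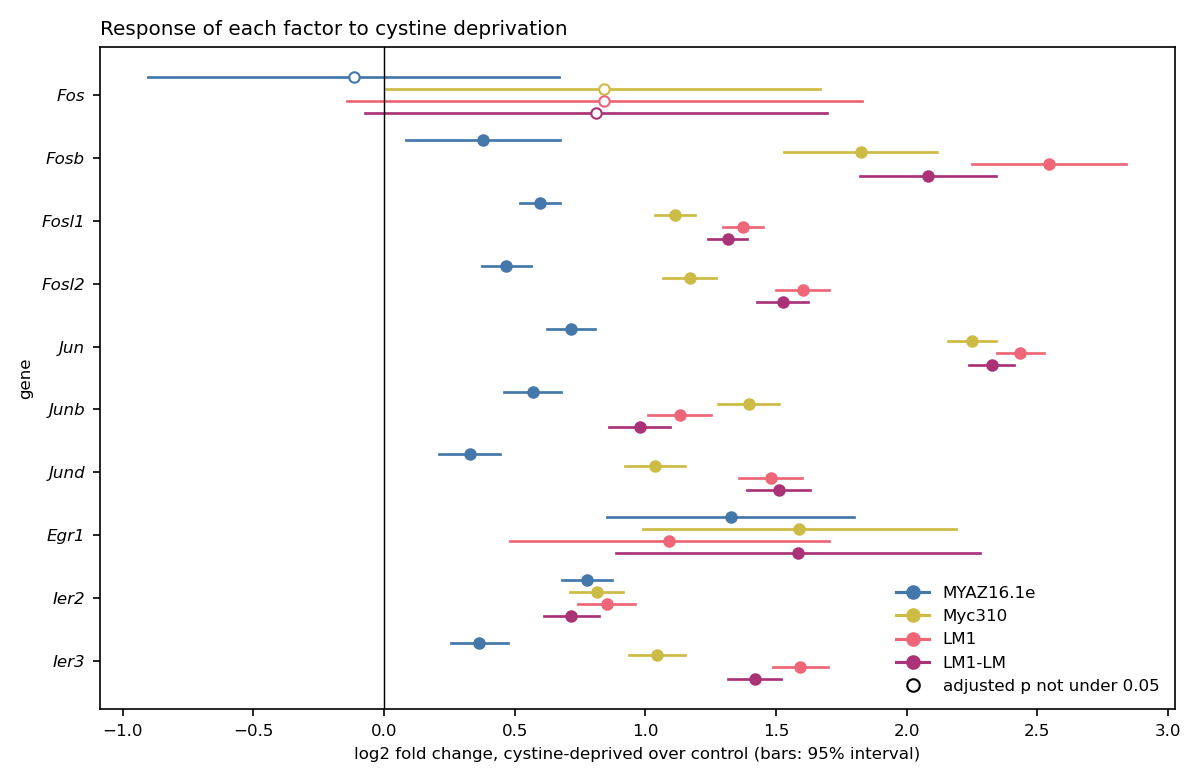
Log2 fold change of each member on deprivation (deprived over control) in the 4 lines, with its 95% interval; open circles mark an adjusted p that is not under 0.05. Fosb and Jun lie between 1.82 and 2.55 in Myc310, LM1 and LM1-LM, and at 0.38 and 0.72 in MYAZ16.1e, whereas the 4 points of Ier2 lie between 0.72 and 0.85.

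Ier2, Egr1 and Fos did not pass the test of a difference from MYAZ16.1e. For Ier2 the difference was 0.04 (95% interval -0.10 to 0.18) in Myc310, 0.08 (-0.07 to 0.22) in LM1 and -0.06 (-0.20 to 0.08) in LM1-LM, so that each interval lay around 0. The intervals of Egr1 were much wider, at -0.50 to 1.03, -1.01 to 0.54 and -0.58 to 1.10, and those of Fos wider still, at -0.19 to 2.10, -0.30 to 2.22 and -0.26 to 2.11. For Fos, a difference of the size seen for Fosl2 was within each interval, and it could neither be shown nor be set aside at this depth.

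Between LM1 and Myc310, 6 members responded more in LM1 (14.5% of all genes) and 1, Junb, less (9.96%). The 6 were Fosb (0.72, edgeR adjusted p = 0.00877), Ier3 (0.55, 1.66e-06), Jund (0.44, 0.000131), Fosl2 (0.43, 2.37e-05), Fosl1 (0.26, 0.000419) and Jun (0.19, 0.0275). For Junb the difference between the responses was -0.26 (95% interval -0.43 to -0.10, edgeR adjusted p = 0.0163). The call of Jun was lost without any one of the 3 replicate numbers (adjusted p = 0.0829, 0.129 and 0.0749) and under upper-quartile scaling (0.115), that of Fosb without replicate 2 (0.0984) or 3 (0.0805), and that of Junb without replicate 2 (0.139). Under upper-quartile scaling the share of higher calls among all genes called went from 59.3% to 42.7% for LM1 against Myc310, from 51.5% to 41% for LM1 against MYAZ16.1e and from 51.7% to 41.6% for LM1-LM against MYAZ16.1e. No member passed the test between LM1-LM and LM1, where 0.769% of all genes did in either direction. DESeq2 called 0 members there too. At an unadjusted p under 0.05, edgeR gave 2 members, Fosb (-0.46, interval -0.86 to -0.07) and Ier3 (-0.18, interval -0.32 to -0.03), with edgeR adjusted p = 0.342 and 0.336.

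Since counts grow with transcript length, the make-up of the families was compared as CPM per kilobase of annotated exon. On that scale the sum of the 4 FOS genes was 56.4 ± 0.950 in control and 84.8 ± 4.03 in deprived MYAZ16.1e cultures. For Myc310 it was 49.9 ± 1.08 and 109.5 ± 1.44, for LM1 49.5 ± 1.70 and 127.3 ± 3.39, and for LM1-LM 52.9 ± 1.67 and 130.2 ± 6.20. Fosl1 made up between 91.0% and 93.9% of that sum in all 8 groups, so that the FOS side was nearly all Fosl1 in either medium. The share of Fosb was 0.638% in control and 1.41% in deprived LM1 cultures, and 0.780% and 0.677% in those of MYAZ16.1e.

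The JUN family kept no such fixed make-up. Its sum per kilobase was 117.9 ± 4.56 in control and 164.3 ± 3.71 in deprived MYAZ16.1e cultures. For Myc310 it was 89.2 ± 2.78 and 237.3 ± 2.64, for LM1 82.0 ± 4.34 and 251.6 ± 3.31, and for LM1-LM 81.1 ± 1.71 and 244.3 ± 9.46. On deprivation the part of Jun in the sum moved from 15.8% to 28.5% for Myc310, from 20.3% to 34.8% for LM1 and from 23.3% to 37.9% for LM1-LM, but only from 15.1% to 17.9% for MYAZ16.1e. In LM1 and LM1-LM the part of Junb was smaller after deprivation, at 20.5% instead of 29.5% for LM1 and 19% instead of 29.9% for LM1-LM, although its own level rose. It stood at 27.2% and 27.1% in Myc310, and in MYAZ16.1e it was 33.5% in control and 35.7% in deprived cultures, whose ranges did not overlap. Jund made up between 43.1% and 57.0% in these 8 groups and was the largest part in each of them. The exon lengths join all annotated isoforms, so that a gene read mainly through a short isoform is understated.

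**Figure D3:**
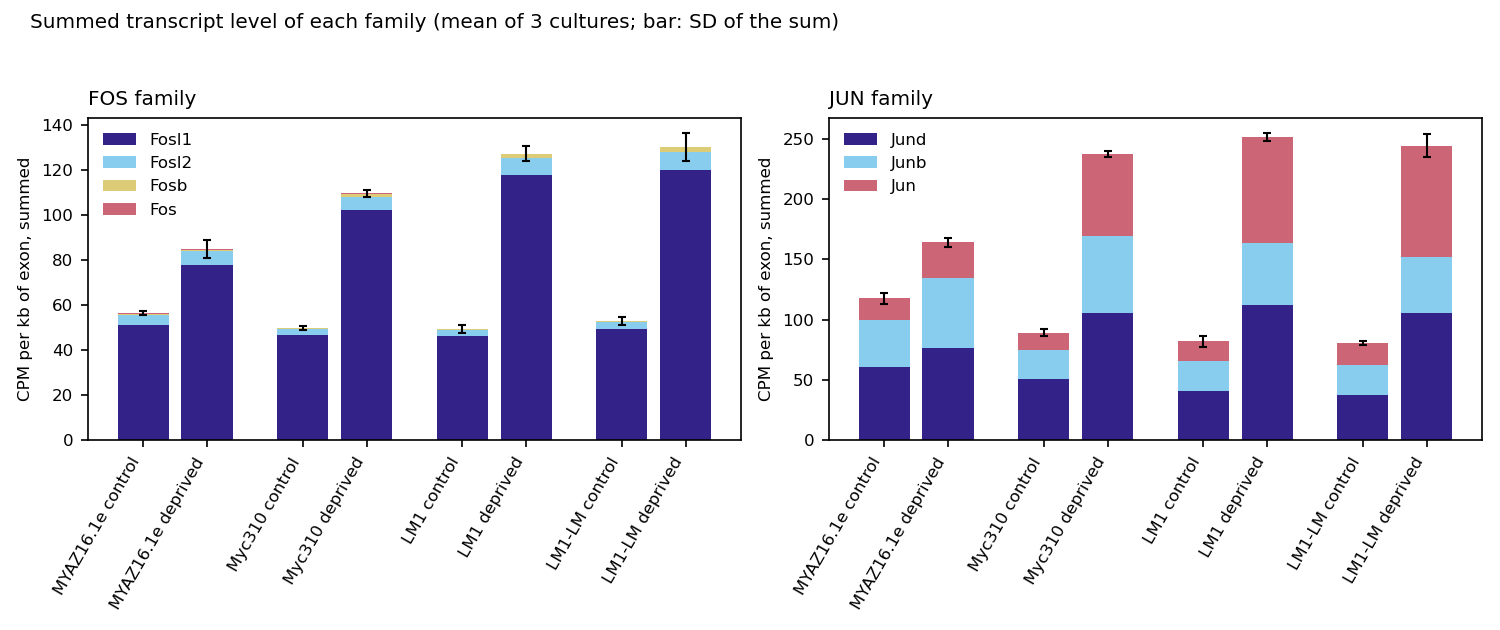
Stacked levels of the FOS genes and of the JUN genes in CPM per kilobase of exon (linear axis from 0) in control and deprived cultures of the 4 lines, as means of 3 cultures with the SD of the sum. Fosl1 fills at least 91.0% of each FOS bar, while Jun widens from 20.3% to 34.8% of the JUN bar in LM1.

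Other genes of the pathway were taken from lists. Of 33 other immediate early genes that could be tested, 20 rose and 1 fell in MYAZ16.1e, 24 rose and 3 fell in Myc310, 23 rose and 4 fell in LM1, and 23 rose and 7 fell in LM1-LM. Over all genes tested, 26.6%, 32.8%, 35.8% and 36.5% rose in these 4 lines and 27.1%, 33.9%, 35.3% and 35.9% fell. The median log2 fold changes of the 33 genes were 0.28, 0.97, 0.97 and 1.09, in the same order of lines. Plk3, a stress-activated kinase, went from 34.0 to 134.7 CPM in MYAZ16.1e and from 30.5 to 632.1 CPM in LM1-LM. Klf4, a zinc finger factor, had log2 fold changes of 2.09, 2.18, 2.91 and 3.25, Klf6 of 0.85, 2.59, 3.18 and 3.20, and Rhob, a small GTPase, of 0.86, 1.85, 2.70 and 2.87. In each of these genes MYAZ16.1e had the smallest of the 4 values.

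Of 17 other bZIP factors, which share the dimer-forming domain, 10 rose in MYAZ16.1e and 12 in each of the other lines, and 0, 1, 2 and 3 fell, where 26.6% to 36.5% of all genes rose and 27.1% to 35.9% fell. The median was 0.29, 0.52, 0.67 and 0.64. Atf3, a stress-induced partner of JUN, had the largest change, from 1.58 to 33.4 CPM in MYAZ16.1e. Its control means in Myc310, LM1 and LM1-LM were 0.474, 0.329 and 0.220 CPM, and its deprived means 126, 166.5 and 171.4 CPM. Atf4, the effector of the amino acid response, had log2 fold changes of 1.65, 2.16, 2.52 and 2.61, and Atf5 of 1.51, 2.52, 3.28 and 3.32. Jdp2, a repressor that pairs with JUN, did not follow that order, with 1.77, 2.22, 1.91 and 1.90.

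Of 15 factors that act on immediate early promoters, 5 rose and 3 fell in MYAZ16.1e, 5 and 5 in Myc310, 6 and 6 in LM1, and 6 and 5 in LM1-LM, with medians between 0.02 and 0.08. These counts were not far from the shares of all genes that rose (26.6% to 36.5%) and fell (27.1% to 35.9%). Srf, which encodes serum response factor, had log2 fold changes of -0.67, -0.86, -0.97 and -1.01. Its coactivator gene Mrtfa had 0.18, 0.71, 0.95 and 0.89, Mef2a had 0.48, 1.07, 1.40 and 1.39, and Ets2 had 0.89, 0.74, 1.16 and 1.45. Creb1 was a member of this list and of the bZIP list. Among 24 kinases and receptors of the MAP kinase routes, 7 rose and 10 fell in MYAZ16.1e, 9 and 11 in Myc310, and 11 and 9 in both LM1 and LM1-LM, with medians between -0.03 and 0.12. Braf had log2 fold changes of 0.18, 0.74, 0.97 and 1.03, whereas Hras had -0.48, -0.89, -1.03 and -1.07 and the ribosomal S6 kinase gene Rps6ka1 had -0.44, -0.73, -0.84 and -0.87.

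Of 18 textbook targets of FOS and JUN dimers, 11 rose and 3 fell in MYAZ16.1e, 12 and 3 in Myc310, 14 and 2 in LM1, and 12 and 3 in LM1-LM. The shares over all genes were 26.6%, 32.8%, 35.8% and 36.5% for rises and 27.1%, 33.9%, 35.3% and 35.9% for falls. The medians of the targets were 0.20, 1.11, 1.60 and 1.16. Il11, a cytokine gene, went from 0.495 to 1.66 CPM in MYAZ16.1e and from 0.710 to 59.95 CPM in LM1-LM. Areg, which encodes the EGF receptor ligand amphiregulin, went from 1.02 to 3.26 CPM in MYAZ16.1e and from 12.4 to 254 CPM in LM1-LM. Ptgs2, the inducible cyclooxygenase, had log2 fold changes of 2.05, 3.57, 4.29 and 4.28. Most of these targets are also known to respond to other factors.

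**Figure D4:**
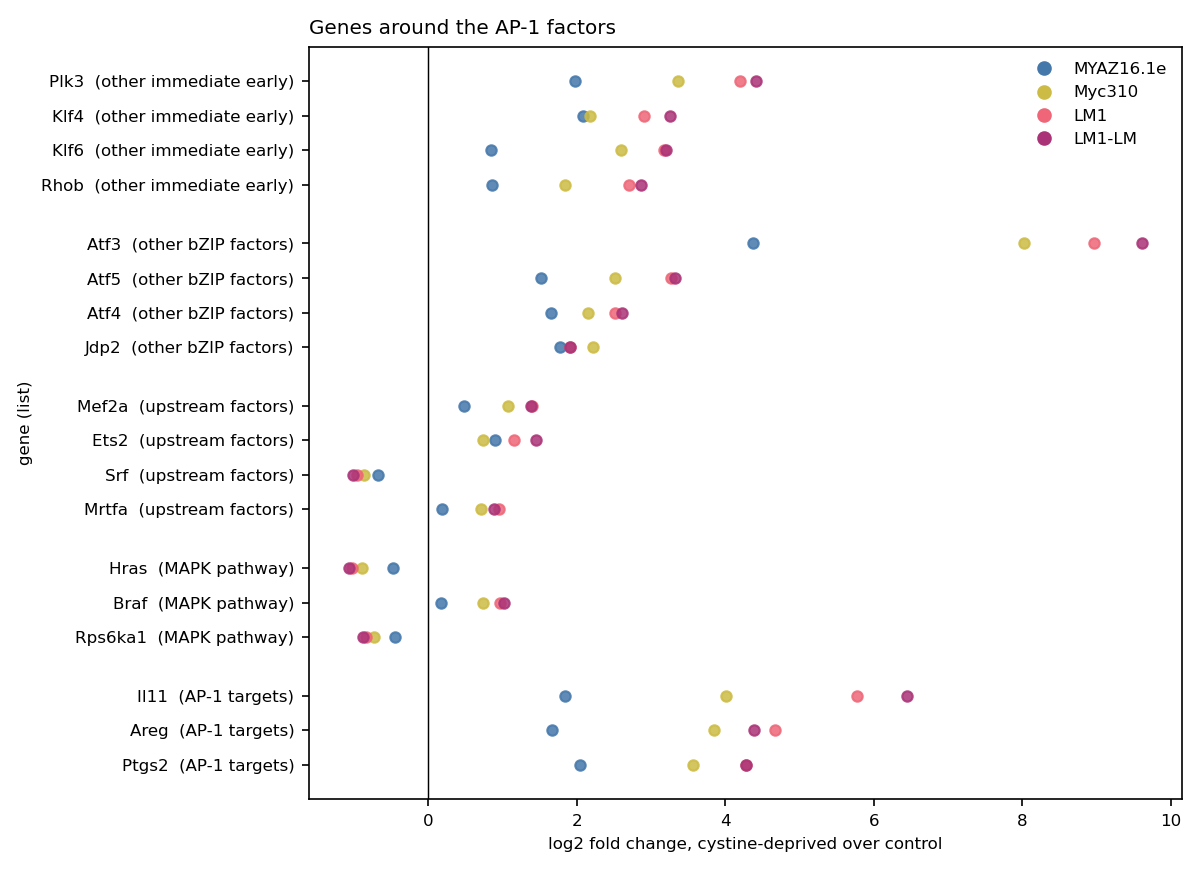
Log2 fold change on deprivation of 18 genes named from the 5 lists, in each of the 4 lines. Atf3 lies highest, from 4.37 in MYAZ16.1e to 9.62 in LM1-LM, and Hras, Rps6ka1 and Srf lie below 0 in each line.

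The third question was how the members differed between the lines in control medium. Fosl1 was the most even, with line means from 91.8 CPM in MYAZ12.3i to 124.4 CPM in LM3-LM, a ratio of 1.36, and 9 of its 10 pairs of neighbouring lines overlapped in their cultures. Egr1 was the least even, from 0.432 CPM in LM1-LM to 8.46 CPM in MYAZ12.3i NDI1, a ratio of 19.6. For Egr1, MYAZ12.3i (6.28 to 7.80 CPM over cultures) and MYAZ12.3i NDI1 (7.89 to 9.12 CPM) stood apart from the other 9 lines, of which MYAZ6.6g, from 2.28 to 4.04 CPM, came closest. Fos was highest in MYAZ12.3i too, at 1.93 CPM, against 0.265 CPM in LM1. Ier3 ran the other way, from 22.8 CPM in MYAZ6.6g to 80.0 CPM in LM3, and only 4 of its 10 neighbouring pairs overlapped.

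Jun ranged from 44.9 CPM in Myc310 to 90.1 CPM in MYAZ12.3i NDI1 and Junb from 55.5 CPM in LM1 to 113.2 CPM in MYAZ12.3i, with 5 and 4 of 10 neighbouring pairs overlapping. Junb was at about the same level in LM1, LM1-LM and Myc310, and LM3 at 95.2 CPM lay among the MYAZ lines. Jund ran from 54.6 CPM in LM2-LM to 105.5 CPM in MYAZ6.6g, Ier2 from 26.7 CPM in LM1 to 62.6 CPM in MYAZ12.3i NDI1, Fosl2 from 25.3 CPM in LM1 to 44.5 CPM in MYAZ12.3i NDI1 and Fosb from 1.97 CPM in LM1 to 3.35 CPM in MYAZ6.6g. For Fosb all 10 neighbouring pairs overlapped, so that neighbours in its order of lines are not resolved.

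**Figure D5:**
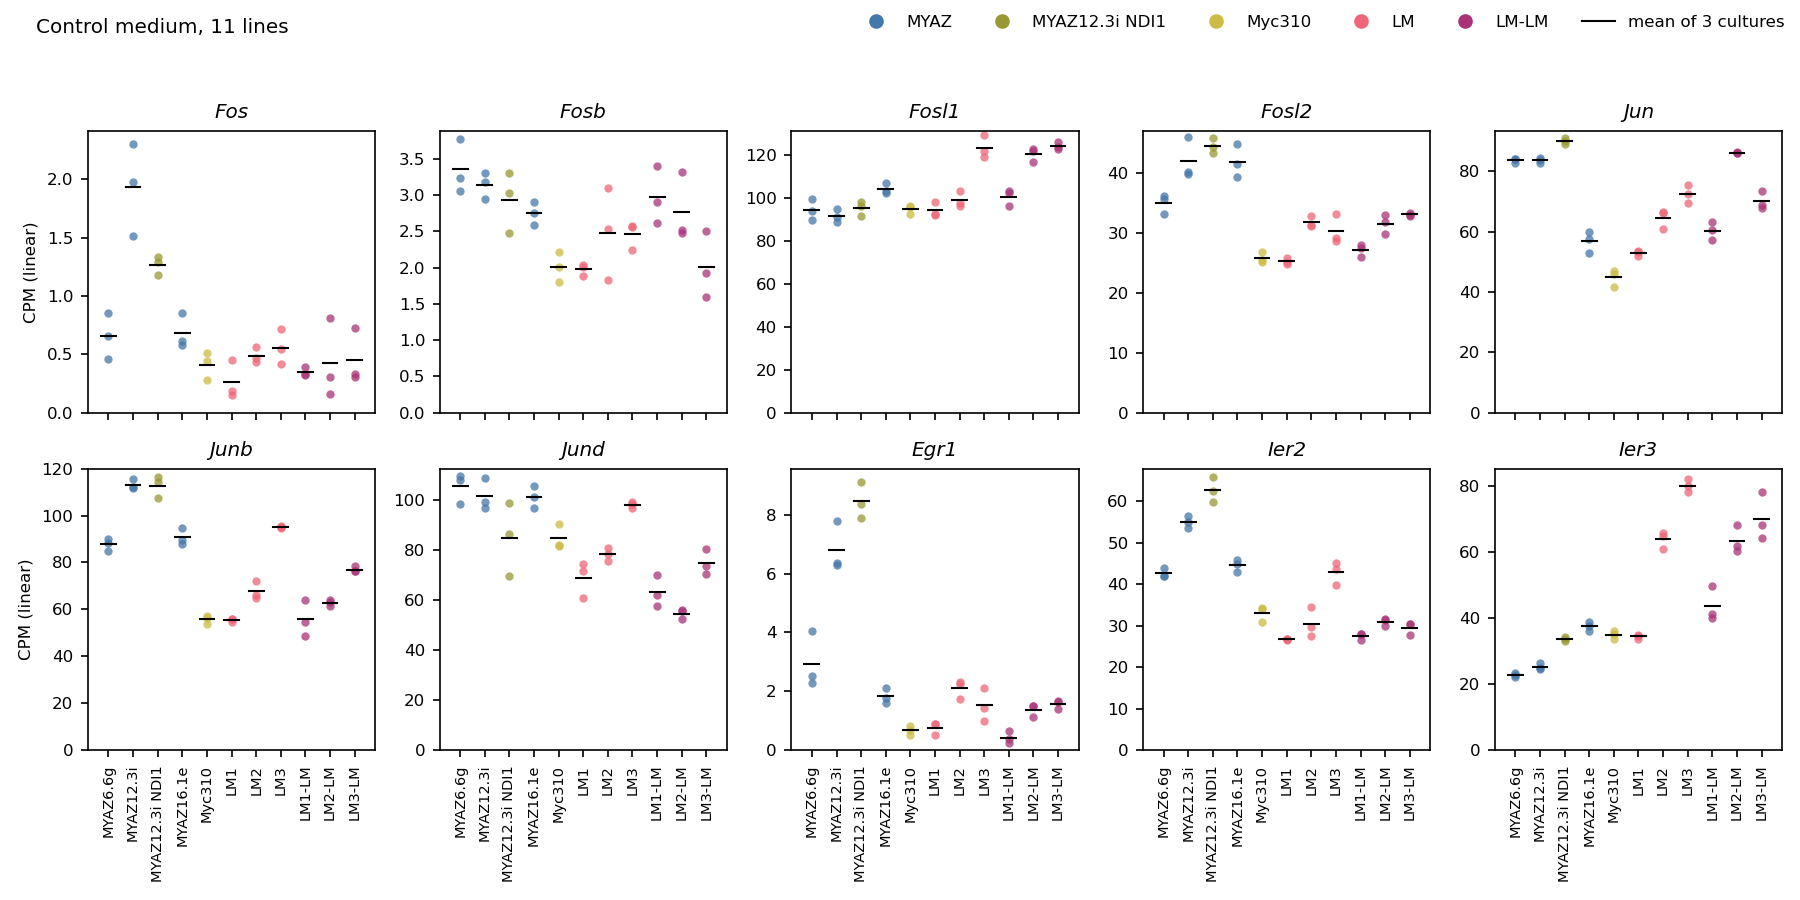
Level of each member in control medium, in CPM, in the 3 cultures of each of the 11 lines. Egr1 stands highest in MYAZ12.3i and MYAZ12.3i NDI1, and Ier3 in LM3 at 80.0 CPM on average.

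Between origins, the design compares MYAZ lines (3), Myc310 (1 line), LM lines (3) and LM-LM lines (3). Taking cultures as samples, as the study's model of 30 control libraries does, 7 of 10 members were lower in Myc310 than in MYAZ lines (27.1% of 13795 genes). In LM lines 7 were lower (30.5%) and Ier3 was higher (30.3%), and in LM-LM lines 6 were lower (32.3%) and Ier3 and Fosl1 were higher (30.5%). These 3 comparisons share the MYAZ libraries. The cultures of a line are not independent, however, and the line is the unit that differs between origins. With counts summed per line, edgeR calls fell to 0 of 10 for Myc310 (4 at an unadjusted p under 0.05), 1 of 10 for LM lines and 3 of 10 for LM-LM lines, while 8.92%, 23.6% and 26.4% of 16017 genes were called in either direction. Myc310 is then 1 sample, assumed to vary between lines as the other origins do. For LM lines the share of members called was no larger than that of all genes, and for LM-LM lines it was close to it. With the line as a random block in limma voom they were 3, 4 and 6 of 10, against 20.4%, 34.5% and 36.6% of 13795 genes.

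The calls that held with summed counts were few. Ier3 was higher in LM lines (line means 59.4 ± 23.1 CPM, SD, n = 3 lines) than in MYAZ lines (28.5 ± 7.92), with a log2 fold change of 1.08 and edgeR adjusted p = 0.0463, but the line means overlapped, LM1 (34.4 CPM) lying below MYAZ16.1e (37.6 CPM), with an exact two-sided permutation p of 0.2. It was also higher in LM-LM lines (59.0 ± 13.7 CPM), by 1.06 with edgeR adjusted p = 0.0465. Jund was lower in LM-LM lines (64.3 ± 10.2 CPM) than in MYAZ lines (102.7 ± 2.37), with a log2 fold change of -0.66 and edgeR adjusted p = 0.0166. Ier2 was lower there as well (29.3 ± 1.75 against 47.3 ± 6.64 CPM), at -0.68 with edgeR adjusted p = 0.0256. Line means did not overlap between LM-LM and MYAZ lines for Fos, Fosl2, Junb, Jund, Egr1, Ier2 and Ier3, nor between LM and MYAZ lines for Fos, Fosb, Fosl2 and Jund, at an exact two-sided permutation p of 0.1, the smallest that 3 lines against 3 allow. How many of all genes did so was not counted, so these lists do not set the members apart.

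Leaving out MYAZ12.3i made the differences in Egr1 and Fos smaller. With cultures as samples, Egr1 was lower in LM than in MYAZ lines by a log2 fold change of -1.39 (edgeR adjusted p = 0.00151) and Fos by -1.30 (0.00137). Without MYAZ12.3i the differences were -0.70 (0.0939) and -0.59 (0.105), and that of Junb also passed out of significance (-0.29, 0.0553). In that fit 5 of 10 members were called in place of 8. Over all left-out replicates and lines the number of genes called ran from 7095 to 8850, against 8385 of 13795 in the main fit. In LM-LM lines both calls held without MYAZ12.3i, with Egr1 at -1.09 (edgeR adjusted p = 0.00949) in place of -1.79 and Fos at -0.71 (0.0499) in place of -1.42. In Myc310 that of Egr1 held, at -1.82 (0.00591) in place of -2.52, and that of Fos was lost, at -0.69 (0.193) in place of -1.40. The MYAZ lines differed among themselves in Egr1 (3.86 ± 2.61 CPM) by more than the LM lines did (1.46 ± 0.669 CPM). Summed cell type markers also differed between origins, over control and deprived libraries. Those of fibroblasts were lowest in Myc310 (1.729 to 2.805 CPM) and highest in LM-LM lines (26.93 to 217.5 CPM). Epithelial markers summed to between 339.9 and 1400 CPM in MYAZ lines, 1383 and 1640 CPM in Myc310, 1105 and 2145 CPM in LM lines and 1016 and 2465 CPM in LM-LM lines, and Krt8 stood at 219.5 CPM in MYAZ12.3i. The part of these markers in the differences was not tested.

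Between LM lines and Myc310 no member passed the test (4.94% of all genes in either direction), with Jun nearest at 0.51 (edgeR adjusted p = 0.0551) and 3 members at an unadjusted p under 0.05. DESeq2 called 2 members there, Jun (adjusted p = 0.022) and Ier3 (0.0345). The shares of all genes under DESeq2 and at the unadjusted p are not given here, so neither count is read as a trait of the members. Between LM-LM and LM lines Jund alone was called, lower by a log2 fold change of -0.37 (edgeR adjusted p = 0.04, with 0.768% of all genes called in either direction), and the call was lost with counts summed per line and without any one replicate number.

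MYAZ12.3i NDI1 was compared with its parent in 6 libraries. 3 of 10 members were called, against 17.4% of 12841 genes in either direction. Ier3 was at 24.7, 24.8 and 26.4 CPM in the parent and at 33.2, 34.3 and 33.7 CPM in the NDI1 line, higher by a log2 fold change of 0.41 (edgeR adjusted p = 0.000142). Ier2 was at 53.4, 56.4 and 54.9 CPM in the parent and at 59.7, 65.8 and 62.3 CPM in the NDI1 line, higher by 0.19 (0.0092), a call lost without replicate 2 (0.0581) or 3 (0.0543). Jund was at 96.8, 109 and 99.2 CPM in the parent and 86.6, 69.5 and 98.8 CPM in the NDI1 line, with overlapping cultures. Its log2 fold change of -0.26 (edgeR adjusted p = 0.0453) was lost without replicate 1 (0.133) or 2 (0.402) and under DESeq2 (0.271). For Jun, Fosl1, Fosl2 and Junb the log2 differences lay between -0.01 and 0.10 and did not pass the test. Neither did Fos (-0.62, edgeR adjusted p = 0.09), Fosb (-0.09, 0.774) nor Egr1 (0.31, 0.0731), the last from 6.81 to 8.46 CPM.

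Over the means of the 15 groups, some members kept a closely related pattern. Pearson's r of log2 CPM was 0.965 between Fosb and Jun, 0.918 between Junb and Ier2 and 0.909 between Fosl1 and Jun, and lowest between Fos and Ier3, at -0.319. Among the genes whose pattern was most like that of a member were Plk3 (r = 0.986) and Map3k2 (0.984) for Fosl1, Stx18 (0.981) for Fosl2, Tet2 (0.981) and Cdk17 (0.978) for Jun, and Pals1 (0.979) and Gpatch2l (0.975) for Fosb. Next came Errfi1 (0.954) and Prune2 (0.948) for Jund, Cdc42ep1 (0.950) and Ripor1 (0.946) for Junb, Spata2 (0.946) and Nub1 (0.936) for Ier2, Med7 (0.943) and Sdccag8 (0.942) for Ier3, and Rest (0.940) and Pctp (0.934) for Egr1. For Fos the values were lower, with 0.911 for ENSMUSG00000108723 and 0.908 for Cxcl2. These correlations are a description over 15 means that share lines and the contrast between media, and carry no p-value.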

How the data were processed

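RNA was extracted from cultured cells, and NEBNext Ultra II Directional polyadenylated libraries were sequenced in paired ends on a NovaSeq. The submitters' processing notes name STAR, RSEM, R 4.2.2, DESeq2 1.38.3 and the GRCm38 build. The authors deposited counts per gene, which are whole numbers; whether RSEM estimates were rounded, and with which strand setting they were made, is not given in the sources used here. All columns were mapped to a sample by library name (0 left out).

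Groups came from the labels of line and treatment. Counts were tested with edgeR 4.0.16 (TMM scaling, filterByExpr, quasi-likelihood F test, two-sided) in R 4.3.3, with p-values adjusted by Benjamini-Hochberg over all genes tested: 13400 genes in the 24 libraries of the deprivation model, 13795 in the 30 control libraries compared by origin, and 12841 in the 6 NDI1 libraries. An adjusted p under 0.05 was called. Standard errors and 95% intervals came from the fitted model. CPM values were TMM-scaled over the 45 libraries. Alternatives were other scalings and filters, DESeq2 1.42.0, limma 3.58.1 (voom), the replicate number as a block, left-out replicates and lines, other sets of libraries and counts summed per line. Scripts were tested on simulated counts. Cultures of a group differed by more than sampling noise (chi-square per gene 2.258 to 6.763 over 45 pairs), so none was counted as a duplicate.

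The members and gene lists were chosen with earlier results of these data known. From each list up to 4 genes were named by mean absolute log2 fold change over the deprivation comparisons among those called in at least 3 of 4 lines, and up to 3 over the comparisons with MYAZ lines among those called in at least 2 of 3, if their mean log2 CPM reached 3. Promoters and exon lengths came from RefSeq (GRCm38.p6) and GENCODE M21. 7 of the listed genes were not used here, and some genes that met these rules are not reported here. Exact permutation tests used culture or line means. Intervals cover counting error and the spread between cultures only.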

Additional observations from a re-analysis of the deposited data

Results flagged for a closer look

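Differences between lines in the response to deprivation were flagged for 7 members, by the interaction test of the edgeR model (28 of 50 tests over 5 pairs of lines and 10 members had an adjusted p under 0.05). Between Myc310 and MYAZ16.1e the log2 differences were 1.45 for Fosb, 0.52 for Fosl1, 0.70 for Fosl2, 1.53 for Jun, 0.83 for Junb, 0.71 for Jund and 0.68 for Ier3. For LM1 against MYAZ16.1e they were 2.17 for Fosb, 0.78 for Fosl1, 1.14 for Fosl2, 1.72 for Jun, 0.56 for Junb, 1.15 for Jund and 1.23 for Ier3. For LM1-LM against MYAZ16.1e they were 1.70 for Fosb, 0.72 for Fosl1, 1.06 for Fosl2, 1.61 for Jun, 0.41 for Junb, 1.18 for Jund and 1.05 for Ier3. These 3 sets share the MYAZ16.1e libraries.

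LM1 against Myc310 gave 0.72 for Fosb, 0.26 for Fosl1, 0.43 for Fosl2, 0.19 for Jun, 0.44 for Jund and 0.55 for Ier3, and -0.26 for Junb, the only value of the 28 below 0. Each line stands for 1 origin here, so a difference between lines and one between origins cannot be told apart. In the 30 sets of 9 control libraries of one member and origin, Dixon's test flagged none. Each set pools cultures of several lines, so its values are not independent and a flag rate of 1 in 20 by chance does not apply. Cultures of a line that lie apart together can also hide each other. Egr1 cultures, for example, ran from 6.28 to 7.80 CPM in MYAZ12.3i, 2.28 to 4.04 CPM in MYAZ6.6g and 1.60 to 2.11 CPM in MYAZ16.1e. The lack of flags therefore does not show that no library stood out.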

How the results depend on the processing

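Of the alternative values of members, 1725 kept their direction and side of the threshold, 69 lost a call, 21 gained one and 35, all uncalled, changed sign. The counts of members called on deprivation and in its differences from MYAZ16.1e stayed within 1.5 times throughout. With RLE or raw scaling 38 pairs of member and line were also free of overlap, a count not made over all genes. Replicate numbers gave no pairing (r from -0.057 to 0.052 over 12 same-numbered pairs). With the replicate block, LM-LM against LM gave 68 genes in place of 106 and 0 members in place of 1, and the block moved no other count of calls by over 1.5 times. For that comparison no filter gave 65 genes and 0 members, at least 10 counts in every library 30 and 0, DESeq2 253 genes, and leaving out a replicate or line 0 to 2063 genes and 0 to 2 members. Summed counts gave 1429 genes and 0 members for Myc310 against MYAZ (main 7022 and 7), 3788 and 1 for LM (8385 and 8), 4226 and 3 for LM-LM (8661 and 8), 2 genes for LM against Myc310 (681) and 0 and 0 for LM-LM against LM. Voom with the line as a block gave 2819 and 3, 4759 and 4, 5054 genes, 37 genes, and 0 and 0. For LM against Myc310, at least 10 counts gave 428 genes, DESeq2 2 members, and left-out samples 188 to 1495 genes and 0 to 3 members. Left-out samples gave 7095 to 8850 genes and 5 to 10 members for LM against MYAZ (8385 and 8). They gave 2035 to 2438 genes and 4 to 6 members for LM1 minus Myc310 (3278 and 7). For NDI1 they gave 898 to 1326 genes and 1 to 2 members (2236 and 3). LM1-LM minus LM1 gave 218 genes without a filter and 4 to 44 with left-out replicates (103). The cause was not tested, beyond the smaller number of samples where some were left out or summed.

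The values that changed sign were uncalled before and after the change. Upper-quartile scaling gave -0.006 for Ier2 in LM1 minus MYAZ16.1e and, in LM1 minus Myc310, -0.008 for Ier2 and -0.042 for Fos, for which RLE gave -0.014. Voom gave -0.069 for Fos and -0.032 for Ier2 in LM against Myc310 and 0.026 for Ier3 in LM-LM against LM. Left-out samples gave ranges, for Fos, of -0.396 to 0.269 on deprivation of MYAZ16.1e, -0.247 to 0.578 in LM1 minus Myc310, -0.959 to 0.552 in LM1-LM minus LM1, -0.122 to 0.424 in LM against Myc310 and -0.408 to 0.113 in LM-LM against LM. In LM-LM against LM the ranges were -0.051 to 0.132 for Fosl2, -0.351 to 0.022 for Ier2, -0.315 to 0.246 for Ier3 and -0.351 to 0.067 for Junb. In LM against Myc310 they were -0.206 to 0.167 for Ier2 and -0.201 to 0.076 for Jund, in NDI1 -0.157 to 0.021 for Fosb and -0.042 to 0.042 for Junb. Against MYAZ, the range of Fosl1 was -0.004 to 0.215 in LM and -0.071 to 0.021 in Myc310, Jun from -0.233 to 0.049 in LM-LM against MYAZ, and Jund from -0.064 to 0.114 in LM1-LM minus LM1. Fos and Egr1 could not be tested at 10 counts in every library, and depth limits both.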

Other observations

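In control medium the genes around the members differed between origins in both directions (edgeR on cultures as samples, so that the spread between lines is not covered). Of 34 other immediate early genes tested, 4 were higher and 15 lower in Myc310 than in MYAZ lines, 10 and 16 in LM lines and 10 and 17 in LM-LM lines, where 23.8%, 30.3% and 30.5% of all genes were higher and 27.1%, 30.5% and 32.3% lower. Ccn1, a matricellular protein gene, was at 239.7 CPM in MYAZ lines and at 101.9, 109.8 and 108.9 CPM in Myc310, LM and LM-LM lines. Arc went the other way, from 9.84 CPM in MYAZ lines to 44.8 CPM in LM and 28.8 CPM in LM-LM lines. In Myc310, Arc was at 18.8 CPM and was not called (edgeR adjusted p = 0.0569). Of the other bZIP factors, Atf5 had log2 fold changes of -1.41, -1.27 and -1.32 and Atf2 of -0.69, -0.80 and -0.76, while Mafk had 0.85, 0.79 and 0.96.

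Among 18 textbook AP-1 targets, 7 were higher and 5 lower in Myc310, 10 and 5 in LM lines and 10 and 4 in LM-LM lines. Mmp3, a matrix metalloproteinase gene, was at 0.318 CPM in MYAZ lines and at 17.8, 37.2 and 21.2 CPM in Myc310, LM and LM-LM lines, and Areg at 0.640 CPM against 11.7, 19.04 and 16.3 CPM. Plau, the urokinase gene, was at 24.8 CPM against 94.3, 96.1 and 95.1 CPM. These 3 genes were named for the size of their change and do not stand for the list, whose counts are to be read against the same shares of all genes. Of the MAP kinase genes, Rps6ka1 had log2 fold changes of 1.37, 1.04 and 1.08 and Map3k5 of 1.01, 0.68 and 0.55.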
